A study of Mus musculus with 278 samples.

Results

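Ptbp1, Ptbp2 and Ptbp3 encode the 3 polypyrimidine tract binding proteins of the mouse, and their transcripts are described here in 278 single spermatogonia sorted for an Id4 reporter. They are 3 of the 23354 genes in the expression matrix. The genes were chosen on their levels across the quartiles of reporter brightness in these same cells, where Ptbp3 was already known to be higher in bright cells. Their values by quartile are therefore a description and carry no p-value.

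Polypyrimidine tract binding proteins bind pyrimidine-rich stretches of RNA beside splice sites and mostly keep the neighbouring exon out of the mature transcript. Ptbp1 is made in most proliferating cells, Ptbp2 is best known from neurons and from germ cells of the testis, and Ptbp3, also called ROD1, was first described in blood-forming cells. PTBP1 protein promotes skipping of an exon in its own transcript and of the matching exon in the Ptbp2 transcript, and the skipped forms are removed by nonsense-mediated decay, the pathway that degrades transcripts with an early stop codon.

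The cells came from untreated mice at postnatal day 6 that carry EGFP under control of Id4, a marker of spermatogonial stem cells, so that brightness reports the transgene and not ID4 protein itself. EGFP-positive cells were sorted from digested testes of 2 or more pups pooled, captured on a Fluidigm C1 chip and imaged, and dead cells, multiplets and wells with debris were dropped. The design text ranks brightness from Q1 (bright, 74 cells) through Q2 (70 cells) and Q3 (74 cells) to Q4 (dim, 60 cells). A protocol passage gives the dim quartile another number, and the order of the design text was used. The cells fell into 5 preparations of 26, 62, 37, 75 and 78 cells, each with all 4 quartiles. The design text speaks of 5 preparations and the sample titles carry a sequencing number from 1 to 5; that these are the same is an assumption made here. The labels do not say whether the preparations were separate litters, so errors between them measure only the spread of these preparations, which may be technical.

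Values are FPKM, fragments scaled to transcript length and to the mapped fragments of the cell, so levels of different genes can be set side by side. A gene is called detected in a cell at an FPKM of at least 1. Differences are on the log2(FPKM + 1) scale, where 1 is the pseudocount that keeps zeros defined and that understates differences of weakly expressed genes. An estimated 676353 mapped fragments per cell lay at the median (5th to 95th percentile 333089 to 1101950, approximate). Of the 12 germ cell markers the median cell had 12 detected and the poorest cell 4. The median cell had 0 detected of 10 Sertoli, 6 Leydig, 6 peritubular, 6 endothelial and 5 leukocyte markers. Sertoli marker Amh and 5 of the 6 Leydig markers were listed at 0 in every cell, although 1 cell had 8 of the 10 Sertoli markers detected. Somatic markers were not absent. The most widely detected of each type were Clu (Sertoli, 10.1% of cells), Star (Leydig, 19.8%), Myl9 (peritubular, 21.2%), Pecam1 (endothelial, 10.1%) and Cd68 (leukocyte, 14.4%). From Q1 to Q4, summed Sertoli markers averaged 10.6, 9.08, 19.1 and 5.45 FPKM, beside 4196 to 4332 FPKM over the quartiles for germ cell markers. Detected genes per cell were 561 ± 379 more in Q1 than in Q4 (SD, n = 5), with the same sign in all 5 (two-sided exact permutation p = 0.0625, the lowest possible with 5).

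In the GENCODE M21 annotation of GRCm38, Ptbp1 (ENSMUSG00000006498.16) lies on the forward strand of chr10:79854427-79864771. Ptbp2 (ENSMUSG00000028134.11) lies on the reverse strand of chr3:119718742-119784466. Ptbp3 (ENSMUSG00000028382.15) lies on the reverse strand of chr4:59471868-59549364. The genes have 16, 13 and 13 annotated transcripts in that order, of which 6, 5 and 9 are protein-coding and 3, 2 and 2 are marked as targets of nonsense-mediated decay. Ptbp1 shares 295 exonic bases with E130317F20Rik, 251 with Plppr3 and 437 with Gm17134, all on the opposite strand, and Ptbp3 shares 207 with 1700018M17Rik. The strand setting of the quantifier is not known here, so reads from those stretches cannot be assigned. Ptbp2 has no such overlap.

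The exon whose skipping is known to send Ptbp1 and Ptbp2 transcripts to decay is shown because it is the target of that regulation. The pyrimidine-rich stretches in the introns beside it are not shown. Each gene has such a coding exon of 34 bases. That of Ptbp3 was picked by its length and its match to the Ptbp1 exon, so its likeness was partly selected for. It is exon 9 of the longest coding transcript of Ptbp1 (chr10:79862014-79862047), exon 10 of Ptbp2 (chr3:119724612-119724645) and exon 10 of Ptbp3 (chr4:59485339-59485372). The sequences below are from the GENCODE M21 transcripts, 5′ to 3′ on the transcript strand, and capitals mark the 19 positions at which all 3 genes have the same base.
Ptbp1: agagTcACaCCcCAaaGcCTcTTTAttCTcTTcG
Ptbp2: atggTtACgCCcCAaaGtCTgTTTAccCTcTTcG
Ptbp3: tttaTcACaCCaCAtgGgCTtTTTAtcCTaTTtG

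The Ptbp1 and Ptbp2 exons were identical at 26 of 34 bases, Ptbp1 and Ptbp3 at 22, and Ptbp2 and Ptbp3 at 21. Pyrimidines made up 64.7% of the exon in Ptbp1, 64.7% in Ptbp2 and 67.6% in Ptbp3. The exon is in 3 annotated coding transcripts of Ptbp1, 3 of Ptbp2 and 7 of Ptbp3. Annotated decay transcripts that skip it number 2 for Ptbp1, 2 for Ptbp2 and 0 for Ptbp3. The matrix has 1 value per gene and cell, so the amount of transcript with and without this exon was not measured.

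All 3 genes were transcribed in these cells, Ptbp1 and Ptbp3 in nearly every cell and Ptbp2 in about 3 of 4. Over the 278 cells Ptbp1 averaged 69.6 FPKM with a median of 53.99, Ptbp3 averaged 46.5 with a median of 35.4, and Ptbp2 averaged 29.8 with a median of 16.8. Ptbp1 was detected in 267 cells (96.04%), Ptbp3 in 270 (97.1%) and Ptbp2 in 204 (73.4%). Ptbp1 and Ptbp3 were each listed at 0 in 7 cells and Ptbp2 in 58. A 0 need not mean that the transcript was absent. The housekeeping gene Gapdh was at 0 in 1 cell, and Actb, Eef1a1 and Rps3 in 0 cells, which says little about the 58 cells without Ptbp2.

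The depth behind these values was ample for Ptbp1 and Ptbp3 and smaller for Ptbp2. At the median depth 1 fragment is worth about 0.50 FPKM for Ptbp1, 0.41 for Ptbp2 and 0.22 for Ptbp3, taking the longest coding transcript of each gene. The median FPKM then stands for about 108 fragments of Ptbp1, 40.5 of Ptbp2 and 159 of Ptbp3. Among the 10452 genes tested (those detected in no fewer than 10% of cells), the mean level of Ptbp1 was at percentile 87.3, of Ptbp3 at 83.05 and of Ptbp2 at 67.4.

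Cells differed widely in all 3 genes. The coefficient of variation over cells was 92.8% for Ptbp1, 86.6% for Ptbp3 and 141% for Ptbp2. Ptbp1 reached 464 FPKM and was at 100 FPKM or more in 69 cells, Ptbp3 reached 233 and was that high in 26 cells, and Ptbp2 reached 435 and was that high in 16 cells. The cell with the most Ptbp2 stood well apart from the next, at 435 FPKM (preparation 3, Q4) against 212 FPKM (preparation 5, Q4).

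**Figure D1:**
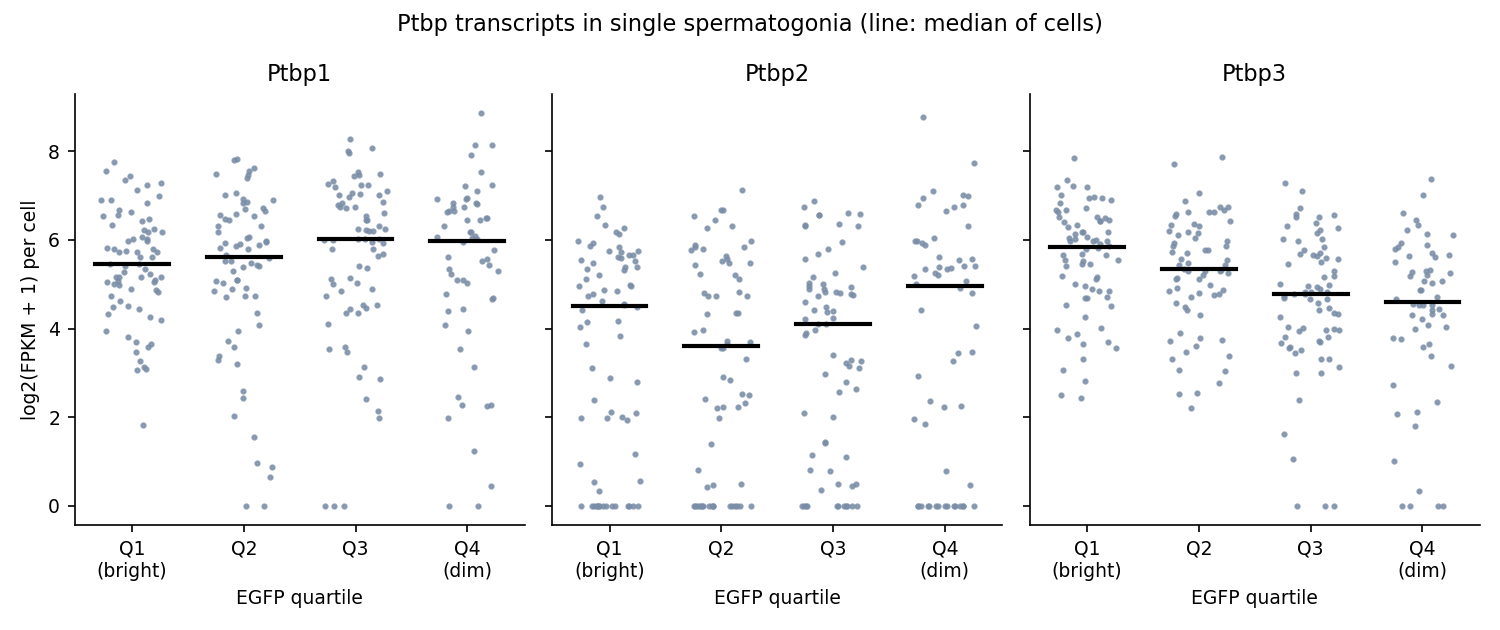
Level of Ptbp1, Ptbp2 and Ptbp3 in each of the 278 cells, as log2(FPKM + 1), by EGFP quartile from Q1 (bright) to Q4 (dim); each point is a cell and the line is the median of the cells. The Ptbp3 median falls from quartile to quartile (56.3 FPKM in Q1, 23.4 in Q4), while Ptbp2 has a row of cells at 0 in every quartile.

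Ordered by level, Ptbp1 stood above Ptbp3, and Ptbp3 above Ptbp2. With the 4 quartiles weighted equally, the 5 preparations averaged 5.51 ± 0.52 for Ptbp1, 4.93 ± 0.21 for Ptbp3 and 3.39 ± 0.35 for Ptbp2 on the log2(FPKM + 1) scale (SD, n = 5). Ptbp1 exceeded Ptbp2 by 2.12 ± 0.65 (SD, n = 5), higher in 5 of 5 (two-sided exact permutation p = 0.0625, adjusted over 3 pairs 0.0938). Ptbp3 exceeded Ptbp2 by 1.54 ± 0.28 (SD, n = 5), also in 5 of 5 (exact permutation p = 0.0625, adjusted 0.0938). Ptbp1 and Ptbp3 were neighbours whose difference of 0.58 ± 0.45 (SD, n = 5) ran from -0.01 to 0.97, above 0 in 4 of 5 preparations (exact permutation test, p = 0.125, adjusted 0.125). With 5 preparations no pair could reach an adjusted p below 0.05.

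On the log scale Ptbp3 was highest in the brightest cells of every preparation. In Q1 its mean level was 5.94, 5.45, 5.72, 5.29 and 5.67 in preparations 1 to 5 on the log2(FPKM + 1) scale. In Q4 it was 4.63, 4.84, 2.99, 4.49 and 4.22. The Q1 means and the Q4 means did not overlap, and the lowest of all was preparation 3 in Q4. Of the 3 genes only Ptbp3 had Q1 means wholly above its Q4 means, where 0.651% of all tested genes did, and because the quartile values chose the gene nothing is read from that count.

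The 2 middle quartiles of Ptbp3 lay between. In Q2 the level was 4.85, 5.32, 5.19, 5.27 and 5.31, and in Q3 it was 5.03, 4.94, 4.57, 4.41 and 4.40 (preparations 1 to 5). These overlapped: preparation 1 was the lowest in Q2 and the highest in Q3. Q1 was the highest quartile in 5 of 5 preparations and Q4 the lowest in 4 of 5, and the level fell at every step in 3 of 5.

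On the linear scale the Ptbp3 means were 64.1 ± 11.5 FPKM (Q1), 51.8 ± 11.7 (Q2), 37.7 ± 7.36 (Q3) and 31.2 ± 10.4 (Q4), each ± SD with n = 5. It was detected in 74 of 74 cells in Q1, 70 of 70 in Q2, 71 of 74 in Q3 (95.9%, Wilson 95% interval 88.7% to 98.6%) and 55 of 60 in Q4 (91.7%, 81.9% to 96.4%). These intervals cover counting error only. In each quartile over 9 in 10 cells thus had the transcript, and what differed was mainly its amount per cell.

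In the fit over all genes, Ptbp3 was 1.23 ± 0.28 higher in Q1 than in Q4 (log2 difference ± SE, n = 5). That is a ratio of 2.35 in FPKM + 1 averaged on the log scale, not a ratio of mean FPKM. With the log2 of the mean FPKM in place of the mean of log2, the difference was 0.92 ± 0.25 (± SE). The slope in the fit as reported was 0.43 ± 0.09 per quartile step toward Q1. The median over all tested genes was 0.17 for Q1 minus Q4 and 0.05 for the slope. The difference within each preparation was 1.31, 0.61, 2.73, 0.80 and 1.44 in preparations 1 to 5. All 5 were above 0, and preparation 3 had the largest. The step from Q2 to Q3 was 0.63 ± 0.27, that from Q1 to Q2 0.32 ± 0.27 and that from Q3 to Q4 0.28 ± 0.28 (± SE), 3 estimates whose errors overlap. Without preparation 3 the last of these was 0.10.

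**Figure D2:**
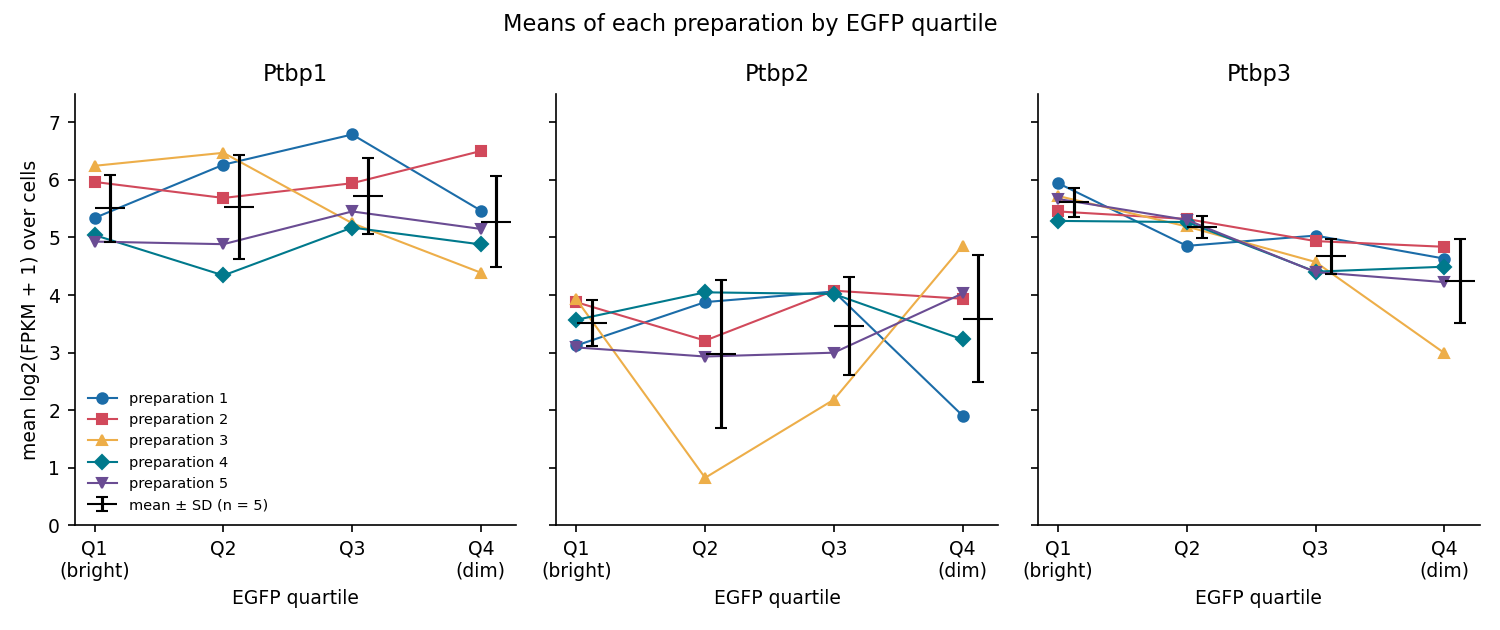
Mean log2(FPKM + 1) over the cells of each preparation, by EGFP quartile; colours and symbols are the 5 preparations, and the black bars are their mean ± SD (n = 5). All 5 lines of Ptbp3 start between 5.29 and 5.94 in Q1 and end between 2.99 and 4.84 in Q4, while the lines of Ptbp1 and Ptbp2 cross.

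Ptbp1 had no direction across the quartiles that all preparations shared on the log scale. Its level in Q1 was 5.34, 5.96, 6.24, 5.04 and 4.93 in preparations 1 to 5, and in Q4 it was 5.47, 6.50, 4.39, 4.88 and 5.15. The groups overlapped almost fully. Q1 minus Q4 was 0.05 ± 0.32 (± SE), with 2 of 5 preparations above 0 and a range from -0.54 to 1.86. The slope was -0.02 ± 0.10, with 1 of 5 preparations above 0. That was preparation 3 (0.68), and elsewhere the slope ran from -0.19 to -0.03.

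The linear scale gave another picture for Ptbp1. Its mean FPKM was 59.6, 80.2, 94.6, 42.1 and 34.9 in Q1 (preparations 1 to 5) and 63.6, 104, 122, 51.8 and 61.9 in Q4. Q1 was below Q4 in 5 of 5 preparations, although the groups overlapped because preparations differed from each other. The Q4 mean of preparation 3 includes 1 cell at 464 FPKM among its 7, and that of preparation 1 rests on 4 cells. How many of all genes behave this way was not counted, so nothing is read from the 5 of 5. With the log2 of the mean FPKM in place of the mean of log2, Q1 minus Q4 was -0.46 ± 0.18 and the slope -0.17 ± 0.06 (± SE). The 2 summaries part where a few cells are very high and others at or near 0. In Q4 of preparation 3 Ptbp1 had the highest mean FPKM of all 20 combinations, 122, while it was detected in only 71.4% of 7 cells. Without preparation 3, Q1 minus Q4 on the log scale was -0.21 ± 0.27.

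By quartile the Ptbp1 means were 62.3 ± 25.2 FPKM (Q1), 72.4 ± 24.3 (Q2), 86.8 ± 22.8 (Q3) and 80.7 ± 30.6 (Q4), each ± SD with n = 5. The spread between preparations exceeded the differences between neighbouring quartiles. Ptbp1 was detected in 74 of 74 cells in Q1, 65 of 70 in Q2, 71 of 74 in Q3 and 57 of 60 in Q4.

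Ptbp2 showed no common direction either. Its level in Q1 was 3.12, 3.88, 3.92, 3.57 and 3.09 in preparations 1 to 5 (log2(FPKM + 1)), and in Q4 it was 1.91, 3.94, 4.85, 3.23 and 4.03. The Q1 values lay within the Q4 range. Q1 minus Q4 was -0.23 ± 0.46 (± SE), with 2 of 5 preparations above 0 and a range from -0.94 to 1.22, and the slope was -0.10 ± 0.14. Without preparation 5 the difference was 0.07 ± 0.56.

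The Ptbp2 means were 26.7 ± 7.87 FPKM (Q1), 22.1 ± 10.8 (Q2), 24.2 ± 9.81 (Q3) and 46.2 ± 39.4 (Q4), each ± SD with n = 5. The wide error in Q4 came with preparation 3, whose 7 cells averaged 111 FPKM, and 56.9 FPKM without the cell at 435. Pooled over preparations, Ptbp2 was detected in 55 of 74 cells in Q1 (74.3%, Wilson 95% interval 63.3% to 82.9%). In Q2 it was 49 of 70 (58.5% to 79.5%). In Q3 it was 57 of 74 (77.03%, 66.3% to 85.1%) and in Q4 43 of 60 (71.7%, 59.2% to 81.5%). The 4 intervals overlapped, but they cover counting error only. By preparation the share ran from 14.3% (preparation 3, Q2) to 100% (preparation 1, Q2 and Q3), each of 7 cells.

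The balance among the 3 genes differed from bright to dim cells while their sum differed by less than the spread between preparations. Summed PTBP FPKM averaged 153 ± 38.8 (Q1), 146 ± 19.5 (Q2), 149 ± 25.0 (Q3) and 158 ± 56.04 (Q4), each ± SD with n = 5. Ptbp3 made up 42.7 ± 5.76% of it in Q1, then 35.5 ± 6.86%, 25.3 ± 2.03% and finally 22.7 ± 10.5% in Q4 (SD, n = 5). Its Q1 share ran from 35.3% to 49.7% over preparations and its Q4 share from 5.30% to 31.5%. These shares rest on the quartile values that chose the gene, so nothing is read from the gap between them. Ptbp1 made up 39.7 ± 8.43%, 48.6 ± 11.2%, 57.9 ± 8.78% and 51.1 ± 8.20% from Q1 to Q4. Ptbp2 made up 17.7 ± 4.21%, 15.9 ± 8.89%, 16.8 ± 7.55% and 26.2 ± 14.2% in the same order. Shares of a sum are tied to each other, so these are not separate findings from the levels above.

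**Figure D3:**
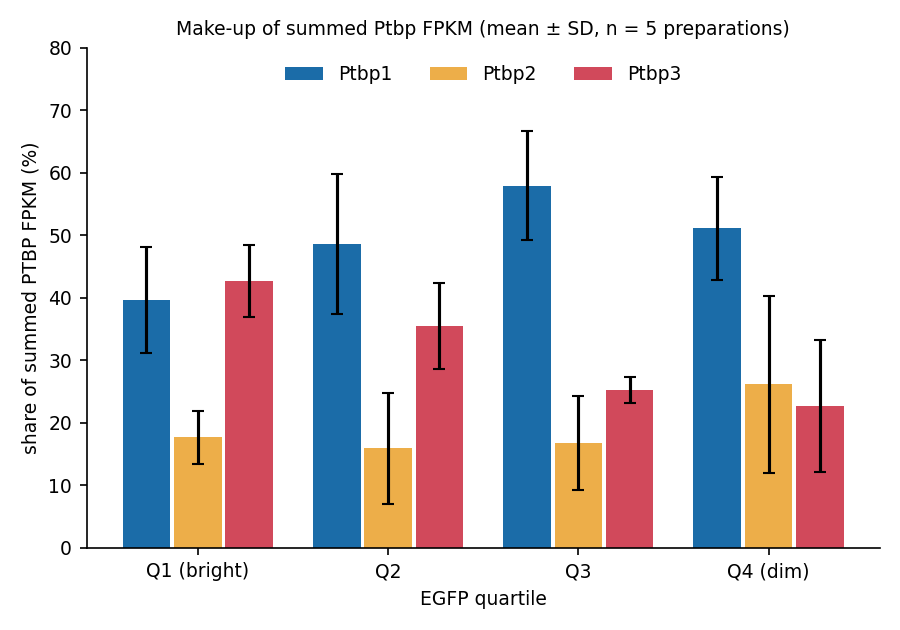
Share of the summed FPKM of Ptbp1, Ptbp2 and Ptbp3 that each gene made up, by EGFP quartile; bars are the mean of 5 preparations and error bars their SD. Ptbp3 falls from 42.7% in Q1 to 22.7% in Q4, and Ptbp1 is the largest share in Q2, Q3 and Q4.

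The same values were also read cell by cell, with cells pooled over preparations. Since the quartile values chose the genes, these counts are a description and not separate evidence. Ptbp3 was the most abundant of the 3 in 38 of 74 cells in Q1 (51.4%), 29 of 70 in Q2 (41.4%), 16 of 74 in Q3 (21.6%) and 13 of 60 in Q4 (21.7%). From Q1 to Q4, Ptbp1 was the most abundant in 26, 35, 47 and 34 cells. Ptbp2 led in 10, 6, 11 and 13 cells. Over all quartiles Ptbp1 led in 142 cells, Ptbp3 in 96 and Ptbp2 in 40, where 1 cell with all 3 at 0 was counted under Ptbp1.

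Most cells carried all 3 transcripts. All 3 were detected in 196 cells (70.5%), 2 in 72, 1 in 9 and none in 1. The commonest other pattern was Ptbp1 with Ptbp3 and no Ptbp2, in 65 cells. Every Q1 cell had either all 3 (55 cells) or this pair (19 cells).

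Within preparations the levels of the 3 genes had correlations near 0 from cell to cell. Ptbp1 and Ptbp2 were detected together in 200 cells, where the product of their shares in each preparation gives 196.4. The pair Ptbp1 and Ptbp3 was found in 261 cells against 259.5, and Ptbp2 with Ptbp3 in 199 against 198.6. After subtracting preparation means, Pearson's r of log2(FPKM + 1) over 278 cells was -0.01 for Ptbp1 with Ptbp2, 0.06 for Ptbp1 with Ptbp3 and -0.03 for Ptbp2 with Ptbp3. Spearman's rho was -0.02, -0.01 and -0.02. By preparation r ran from -0.20 (Ptbp2 with Ptbp3) to 0.48 (Ptbp1 with Ptbp3). These values describe cells that share a preparation and differ in depth, and weak values in such data are no finding.

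Levels were also compared between preparations. The F test weighs preparations against the spread of their own quartile means, since each preparation is a single one, and whether preparation values were in view when the genes were chosen is not known. Ptbp1 had mean FPKM, with quartiles weighted equally, of 80.9, 85.2, 107, 48.4 and 56.5 in preparations 1 to 5. Preparations 4 and 5 were low, and the fitted preparation means spanned 1.17 on the log2 scale (limma F test, adjusted p = 0.0250). Ptbp1 was thus 1 of 3 members called, while 3412 of all 10452 genes (32.6%) were called, so its call is not set apart from the background. Its call was lost when low genes were kept (adjusted p = 0.0647), with unweighted means (0.0728), without preparation 2 (limma adjusted p = 0.169) and without preparation 4 (limma adjusted p = 0.0975). Over all alternatives its adjusted p ran from 0.00225 to 0.169.

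Ptbp2 averaged 18.4, 25.8, 42.3, 29.9 and 32.7 FPKM in preparations 1 to 5, with a fitted range of 0.83 (limma adjusted p = 0.527). Preparation 3 had the highest mean FPKM, 42.3, and 28.8 without the cell at 435 FPKM, which is below preparations 4 and 5. Ptbp2 was detected there in 56.8% of cells, against 66.7% to 84.6% elsewhere. Without preparation 3 the fitted range was 0.52. Ptbp3 had 43.4, 49.4, 51.2, 43.2 and 43.8 FPKM, with a fitted range of 0.42 (limma adjusted p = 0.747). That range was 0.27 without preparation 3, and it was 1.17 and passed (limma adjusted p = 0.0364) once cells shared a 75th percentile of detected genes. Preparation and sequencing number are the same label here and cannot be told apart. The mean number of detected genes was lowest in preparation 3 (4437, the others 5875 to 7148).

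Because bright cells had more detected genes, the 3 transcripts were also set against the breadth of each library. Cells of each preparation were split at its median of detected genes, with the 3 members left out of the count. This gave 138 broad and 140 narrow libraries (median 6796.5 and 5629.5 detected genes, here with the members counted). Ptbp3 was 0.38 ± 0.32 higher in the broad libraries (log2, SD, n = 5), in 5 of 5 preparations (two-sided exact permutation p = 0.0625, adjusted over 3 genes 0.1875). Ptbp2 was 0.70 ± 0.78 higher (SD, n = 5), in 4 of 5 preparations (exact permutation test, p = 0.1875, adjusted 0.281). Ptbp1 was 0.47 ± 0.91 higher (SD, n = 5), in 3 of 5 (exact permutation test, p = 0.375, adjusted 0.375). Without preparation 3 the difference was 0.09 for Ptbp1 and 0.24 for Ptbp3. None passed the threshold, which 5 preparations cannot reach. Across 278 cells, after subtracting preparation means, Pearson's r with detected genes (members counted) was 0.21 for Ptbp1, 0.26 for Ptbp2 and 0.19 for Ptbp3. The median over all tested genes was 0.13, and the 3 stood at percentiles 82.6, 93.1 and 76.3. Spearman's rho was 0.11, 0.22 and 0.15.

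The Ptbp3 difference between Q1 and Q4 was 1.28 ± 0.38 in the broad and 1.21 ± 0.45 in the narrow libraries (± SE). With the mean number of detected genes as a covariate it was 0.87 ± 0.44. Ptbp1 gave -0.24 ± 0.41 and 0.02 ± 0.54 in broad and narrow libraries, and Ptbp2 gave -0.92 ± 0.63 and -0.21 ± 0.68. The split by detected genes was chosen after seeing the data.

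**Figure D4:**
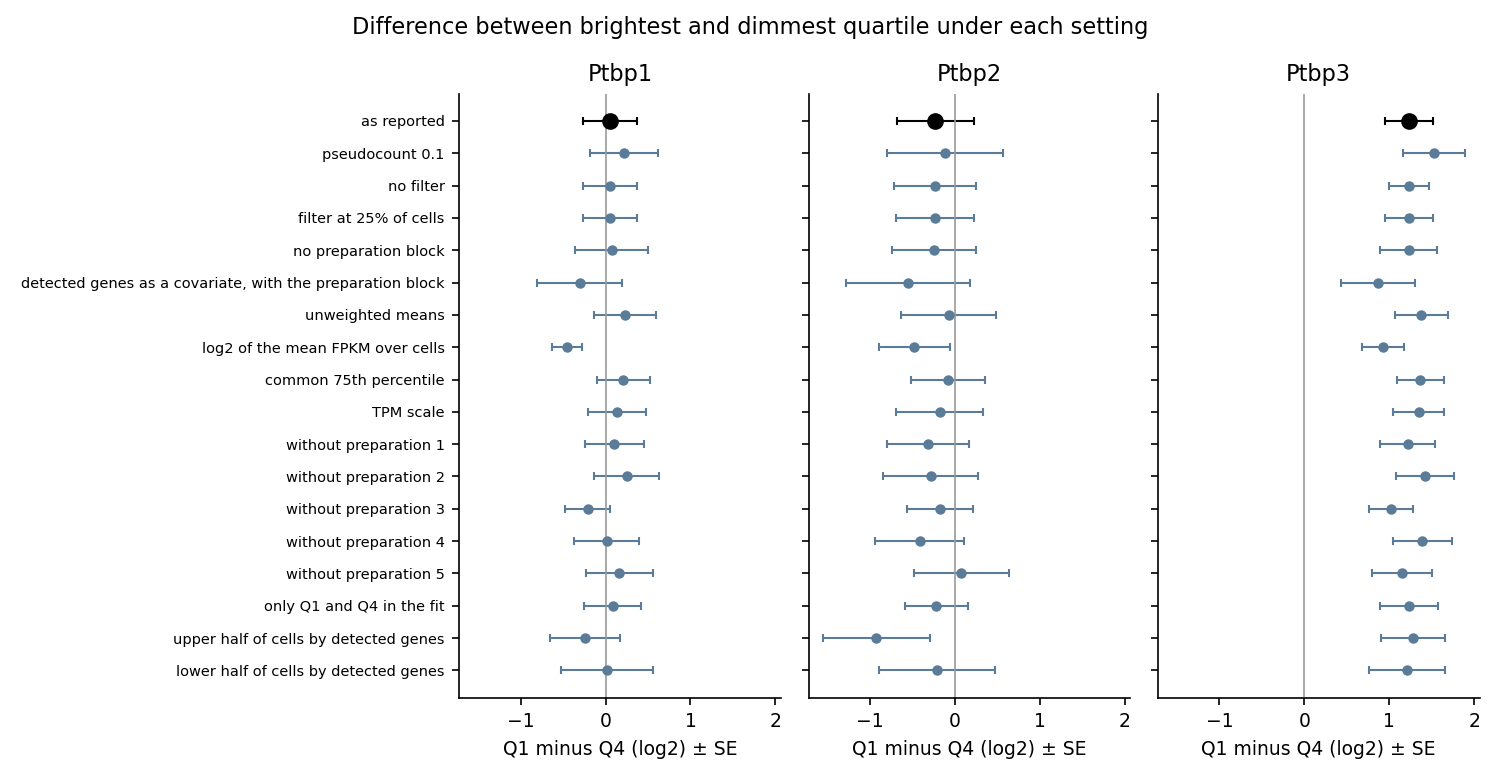
Difference between Q1 and Q4 (log2, point) with its SE (bar) for each gene, as reported (black) and under 17 alternative settings; the grey line is no difference. Ptbp3 stays between 0.87 and 1.53, while Ptbp1 (from -0.46 to 0.25) falls on both sides of 0. Ptbp2 (from -0.92 to 0.07) is above 0 only without preparation 5.

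Across single cells the genes most alike to each member were listed by Pearson's r of log2(FPKM + 1) after subtracting preparation means, over 278 cells and 10451 other genes. For Ptbp3 they were Ccnd2, which encodes the G1 cyclin D2 (0.39), the glutathione peroxidase gene Gpx1 (0.38), Pcna, the sliding clamp of DNA replication (0.37), Etv5, an ETS factor needed for stem cell self-renewal in the testis (0.37), and Dstn, an actin-severing protein (0.35). The median over all genes was 0.03. Quartile means were not subtracted, so a difference between quartiles that 2 genes share enters r. Ptbp3 was chosen by its quartile values, so its list is not separate evidence of a link between these genes. Spearman's rho was 0.29 for Ccnd2, 0.19 for Gpx1, 0.25 for Pcna, 0.29 for Etv5 and 0.25 for Dstn. By preparation r with Etv5 ran from 0.14 to 0.45, with Ccnd2 from 0.10 to 0.57 and with Dstn from 0.24 to 0.49. With Gpx1 it ran from -0.21 to 0.67 and with Pcna from -0.03 to 0.69. Q1 minus Q4 of these genes was 1.10 ± 0.45 for Ccnd2, 0.72 ± 0.32 for Gpx1, 0.40 ± 0.21 for Pcna, 1.62 ± 0.39 for Etv5 and 0.46 ± 0.18 for Dstn (log2 ± SE), beside 1.23 for Ptbp3.

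For Ptbp1 the values were lower: Taldo1, a pentose phosphate enzyme, had 0.34, Cdv3 0.31, Bzw1 0.31, the ATP synthase subunit gene Atp5a1 0.30 and the exon junction gene Rbm8a 0.29. Spearman's rho was 0.22, 0.22, 0.10, 0.26 and 0.18 in the same order. By preparation r ran from 0.18 to 0.57 for Taldo1 and from 0.01 to 0.59 for Cdv3. It reached below 0 for Bzw1 (-0.14 to 0.59), Atp5a1 (-0.13 to 0.52) and Rbm8a (-0.12 to 0.63). For Ptbp2 they were Gtf3c2 (0.29), Poglut1 (0.28), Deb1 (0.28), Gclc (0.27) and Prss36 (0.27). All values come from the same libraries and share their depth, and a list of best matches out of 10451 is a description.

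Other splicing genes were read from 6 lists, to set the PTBP values beside proteins that work with or against them. Over all tested genes 8 (0.0765%) were called higher in Q1 than in Q4 by limma at an adjusted p under 0.05 and 0% lower, and 14 (0.134%) rose in the trend toward Q1 and 0% fell. These counts were 0 under most alternatives, among them leaving out preparation 1, 4 or 5, and 44 and 64 with a common 75th percentile. At an unadjusted p under 0.05 the trend took in 11% of genes upward and 1.24% downward, and Q1 against Q4 10.4% upward and 1.03% downward, of 10452. The median over all genes was 0.17 for Q1 minus Q4. The lists were written with earlier results of these cells known and are no independent evidence of a direction.

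Cofactors and antagonists of PTBP proteins, such as RAVER1, which binds PTBP1 and joins its repression, had 22 of 31 genes tested. No gene passed in either direction at an adjusted p, and at an unadjusted p 2 were upward and 0 downward in the trend and 0 either way for Q1 against Q4. The median of Q1 minus Q4 was 0.17. Esrp1, an epithelial splicing regulator, had a slope of 0.29 ± 0.10 (limma adjusted p = 0.260; 0.18 without preparation 5), Raver1 0.27 ± 0.13 (limma adjusted p = 0.404; 0.05 without preparation 4 and 0.42 without preparation 5) and Mbnl1, a muscleblind protein, 0.20 ± 0.10 (limma adjusted p = 0.464).

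Other hnRNP proteins, the wider class to which PTBP1 (hnRNP I) belongs, had 25 of 26 genes tested, with 0 called. At an unadjusted p 3 were upward and 0 downward in the trend, and 2 and 0 for Q1 against Q4, where the median was 0.14. Syncrip had 52.3 ± 11.4 FPKM in Q1 against 37.8 ± 7.88 in Q4 (SD, n = 5; slope 0.28 ± 0.09, limma adjusted p = 0.192). Hnrnpa2b1 had a slope of 0.11 ± 0.04 (limma adjusted p = 0.240) and Hnrnpm 0.25 ± 0.10 (limma adjusted p = 0.330).

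SR proteins, which mostly promote exon inclusion, and their kinases had 18 of 20 tested, with 0 called. At an unadjusted p 2 were upward and 0 downward in the trend, and 1 and 1 for Q1 against Q4, where the median was 0.06. Srsf4 had the steepest slope of the 3 named, 0.41 ± 0.11 (limma adjusted p = 0.144), close in size to the 0.43 of Ptbp3, followed by Srsf1 at 0.20 ± 0.08 (0.348) and Srsf3 at 0.10 ± 0.05 (0.422).

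Factors that recognise the polypyrimidine tract and branch site, the sequences that PTBP proteins compete for, had 18 of 19 tested, with 0 called. At an unadjusted p 1 was upward and 0 downward in the trend, and 1 and 0 for Q1 against Q4, where the median was 0.03. Puf60, a U2AF-related factor, had 242 ± 68.5 FPKM in Q1 against 195 ± 50.7 in Q4 (SD, n = 5; slope 0.22 ± 0.06, limma adjusted p = 0.155). Puf60 passed once cells were brought to the same 75th percentile of detected genes (limma adjusted p = 0.0443). Sf3b1 had 0.11 ± 0.06 (limma adjusted p = 0.495) and Sf3a3 0.20 ± 0.12 (limma adjusted p = 0.521; 0.02 without preparation 3).

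Transcripts with exons known to be under PTBP control had 17 of 23 tested, with 0 called. At an unadjusted p 2 were upward and 0 downward in the trend, and 1 and 0 for Q1 against Q4, where the median was 0.27. Cttn, which encodes cortactin, had a slope of 0.43 ± 0.14 (limma adjusted p = 0.208), the tropomyosin gene Tpm1 0.24 ± 0.11 (0.387) and Rtn4 0.17 ± 0.09 (0.478). These are levels of whole genes and say nothing of the exons.

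Nonsense-mediated decay and exon junction genes, which act on the skipped forms of Ptbp1 and Ptbp2, had 15 of 15 tested, and 1 was called. It was Upf3b, whose higher level in bright cells was known when the list was written, so its values are a description and nothing is read from the call. Upf3b had 80.8 ± 34.3 FPKM in Q1 against 36.9 ± 20.7 in Q4 (SD, n = 5) and a slope of 0.70 ± 0.13 per step toward Q1 (± SE), and its call was lost under 10 alternatives, among them leaving out preparation 1, 4 or 5. Smg8 had a slope of 0.32 ± 0.13 (limma adjusted p = 0.323). Smg9, detected in 33.5% of cells, had 0.20 ± 0.11 (limma adjusted p = 0.478; 0.11 without preparation 2), while its mean FPKM went the other way, 11.03 ± 6.22 in Q1 against 20.9 ± 20.1 in Q4 (SD, n = 5). At an unadjusted p 2 of the 15 were upward and 0 downward in the trend, and 2 and 0 for Q1 against Q4, where the median was 0.29.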

How the data were processed

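Single cells were profiled by C1 full-length RNA sequencing of polyA RNA. The deposited matrix holds FPKM for 23354 genes in 278 cells, 6247 genes at 0 throughout; the unit was read from the quantifier's name and from the values, since its header states none. The submitters' processing notes name Cufflinks, TopHat, Picard and FastQC with the build mm10 (GRCm38), without versions. Tests were made on log values and no count model was fitted. Depth was estimated from the spacing of low FPKM values and is approximate.

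The 3 genes and the 6 gene lists (134 genes) were chosen with earlier results of these data known. Beside the members and their 5 most alike genes, the text names from each list every gene past an adjusted p of 0.05 and the 3 with the smallest trend p. Means of log2(FPKM + 1) over the cells of each of 20 preparation-by-quartile combinations (4 to 20 cells) were fitted with limma 3.58.1 (R 4.3.3, trend = TRUE), weighted by cells, with preparation (taken to be the sequencing number in the sample titles, an assumption) as a block and 12 residual degrees of freedom, on 10452 genes, with Benjamini-Hochberg adjustment over all of them. Other tests were exact sign-flip permutations over 5 preparations (scipy 1.17.1). Means with the same number were treated as paired, and their deviations correlated (median 0.19, lowest 0.08, 30 pairs) against -0.09 between preparations. The highest correlation between 2 cells was 0.692, well below identity. Alternatives covered the pseudocount, filter, block, weights, averaging, scaling, detected genes and each preparation left out. Gene models are GENCODE M21.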

Additional observations from a re-analysis of the deposited data

Results flagged for a closer look

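Of 21 groups of 5 preparation values examined for Ptbp1, Ptbp2 and Ptbp3, 2 held a value far from the other 4 by Dixon's criterion, which chance gives in about 1 of 20 groups. The slope of Ptbp1 toward Q1 within preparation 3 was 0.68 per quartile step, while in the other 4 preparations it lay between -0.19 and -0.03. The mean of Ptbp3 in Q2 of preparation 1 was 4.85 on the log2(FPKM + 1) scale (7 cells), below the 5.19 to 5.32 of the other preparations.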

How the results depend on the processing

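For Ptbp3, Q1 minus Q4 kept its sign under all 17 alternatives (0.87 to 1.53), and so did its slope under its 16 (0.32 to 0.54). Leaving out a preparation gave 1.02 to 1.42. Scaling moved the median of all genes from 0.17 to 0.26 (common 75th percentile) and 0.22 (TPM scale); relative to it Ptbp3 stood at 1.06 as reported, 1.11 and 1.12. Counts over all genes were unstable. Without the preparation block (paired means), genes called fell from 8 to 0 for Q1 against Q4 and from 14 to 0 for the trend. At an unadjusted p under 0.05 they numbered 592 and 643. With detected genes as a covariate and the block both were 0 (563 and 584). Of the genes named from the 6 lists only Upf3b was called with the block, and its call was lost without it. Both counts were also 0 with no filter, unweighted means, the log2 of the mean FPKM, and the broad or narrow libraries alone (at an unadjusted p 640 to 1571 for Q1 against Q4 and 641 to 1632 for the trend), and Q1 against Q4 was 0 with only those 2 quartiles fitted (1076). They were 44 and 64 at the common 75th percentile, and the trend gave 28 on the TPM scale. Leaving out a preparation gave 0 to 11 and 0 to 9 (0 for both without preparation 1, 4 or 5). Q3 against Q4 went from 0 (773 at an unadjusted p) to 1 with no filter. Genes differing between preparations, 3412 as reported, numbered 470 with the log2 of the mean, 6396 at the 75th percentile and 1457 (without preparation 3) to 3636 with a preparation left out. The Ptbp1 range of preparation means stayed at 1.17 with no filter and with unweighted means but no longer passed, and ran from 0.91 to 1.17 with a preparation left out. That of Ptbp3 rose from 0.42 to 1.17 at the 75th percentile and then passed (limma adjusted p = 0.0364). Slopes changed sign in broad libraries for Mbnl1 (-0.026) and Sf3b1 (-0.0052), and the Ptbp2 difference between broad and narrow libraries was -0.025 with the log2 of the mean. At FPKM of at least 5, Ptbp1 was present in 91.4% and Ptbp3 in 92.4% of cells. Causes were not tested. Some means in preparations 1 and 3 rest on 4 to 7 cells, and gene-level FPKM cannot resolve isoforms.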
